A study of Mus musculus with 9 samples.

Results

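The 4 Mef2 transcription factor genes of the mouse (Mef2a, Mef2b, Mef2c and Mef2d) and the 4 genes of their class IIa histone deacetylase partners (Hdac4, Hdac5, Hdac7 and Hdac9) were examined in striatal RNA at E17.5. They are 8 of the 44886 genes counted, taken by symbol through their Ensembl identifiers. The study removed the transcription factor Ebf1 from striatal projection neurons (SPN) and asked how the direct-pathway SPN (dSPN), in which Ebf1 acts, then differentiate. Each library was made from 400 ng of total RNA and is given as 1 embryo, with 3 embryos per genotype: Control, Islet1Cre;Ebf1fl/- and Dlx5/6::Cre;Ebf1fl/-. Both mutant genotypes carry 1 floxed and 1 null allele of Ebf1, and they differ in the driver that recombines the floxed allele. Islet1Cre acts in dSPN and cholinergic interneurons, whereas Dlx5/6::Cre acts in all SPN and in interneurons. Controls were heterozygous embryos according to the methods, without a statement of which alleles or drivers each carried, and the parents were Ebf1+/- males with a Cre and Ebf1fl/fl females. The strain is given as C57BL/6 for every embryo, but the methods place the Islet1Cre line on a mixed B6D2F1/J background.

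Mef2 proteins bind A/T-rich DNA as dimers and switch on genes of differentiating muscle, immune and nerve cells. Class IIa deacetylases have little catalytic activity of their own. They bind Mef2 on DNA, bring in corepressors and thereby keep its targets silent. Calcium-dependent kinases phosphorylate these deacetylases, which then bind Ywha adaptor proteins and leave the nucleus, while the phosphatase calcineurin acts on Mef2 itself. In neurons, including SPN, the pair is best known for coupling activity to synapse number and to gene expression after stimulation.

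Some libraries stand apart. Counts on genes totalled 16.5 to 41.5 M per embryo. The library labelled Dlx5/6::Cre;Ebf1fl/- replicate 1 had a summed level of 7 progenitor markers of 1053 CPM (counts scaled to a common library total), against 291 to 424 in the other 8 embryos, and a summed level of 10 cortical excitatory markers of 243 against 42.5 to 112. Its 12 SPN markers summed to 2385 CPM, the lowest of all, against 2796 to 3327. Of the sex-linked genes, Xist was at 3 normalized counts in control 2 and between 7270 and 26175 in the other 8 embryos. The library labelled Islet1Cre;Ebf1fl/- replicate 3 held both Xist (7270) and Y-linked Eif2s3y (956 normalized counts, against 1420 in control 2), and control 3 also held both (12074 and 110). Xist is made in females and Eif2s3y in males, so both together are what RNA of embryos of both sexes would give, which was not tested. Some results below are therefore also given without these 3 libraries, a choice made after the data were seen. They are those of Mef2c, of Hdac5 for both mutant genotypes together, of the kinase gene Camkk2 and the numbers of genes called. Eif2s3y was at 0 in all 3 Dlx5/6::Cre;Ebf1fl/- embryos, so sex was not balanced between the genotypes. Leaving out the 3 libraries keeps control 2 and does not balance sex, and the part of sex in the values was not tested. None of the SPN markers was at 0 in all embryos, and the summed markers of skeletal muscle, 1 of the other tissues in which Mef2 genes are high, reached at most 6.72 CPM, with Ckm at 0 in all 9 embryos.

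Ebf1 itself was not lower in the mutants. The controls had 7945, 14208 and 9697 normalized counts, the Islet1Cre;Ebf1fl/- embryos 15343, 13866 and 13210, and the Dlx5/6::Cre;Ebf1fl/- embryos 11774, 13079 and 15312. A count over a whole gene need not fall when part of it is deleted, so these counts leave the genotypes as labelled, unchecked by the transcript. The paper reports that Ebf1 protein was absent from the E17.5 striatum of both mutant genotypes by immunostaining. It also states that genotypes were identified by PCR.

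Expression of Mef2c fell in both mutant genotypes, and of the 8 genes it was the only one past the threshold in either comparison with the controls. The paper had already named Mef2c among the genes deregulated in both mutant genotypes, from the same RNA sequencing. A gene was called at a Benjamini-Hochberg adjusted p below 0.05 in the quasi-likelihood test of edgeR, adjusted over all 16368 genes tested. Mef2c (ENSMUSG00000005583, chr13:83504034-83667080 of GRCm38, plus strand) encodes the Mef2 factor best known from heart and cortical development. The controls had 3859, 3781 and 3279 normalized counts (counts divided by the size factor of the library), the Islet1Cre;Ebf1fl/- embryos 1923, 1716 and 2126, and the Dlx5/6::Cre;Ebf1fl/- embryos 1587, 2473 and 2305. The lowest control lay above the highest of the 6 mutant embryos, and the mutant genotypes overlapped each other. The log2 fold change over control was -0.93 (SE 0.15, 95% interval -1.26 to -0.59, adjusted p = 0.0213) in the Islet1Cre;Ebf1fl/- embryos, where it fell by 47.4%. It was -0.78 (SE 0.15, 95% interval -1.11 to -0.45, adjusted p = 0.0241) in the Dlx5/6::Cre;Ebf1fl/- embryos, where it fell by 41.7%. Between the mutant genotypes the difference was 0.15 (95% interval -0.18 to 0.48, adjusted p = 0.897). In tissue RNA, fewer cells of a type and less RNA per cell cannot be told apart. The paper states that dSPN and indirect-pathway SPN kept their overall proportions in the mutants at E17.5, with an altered distribution. The share of all tested genes past the threshold was 0.971% in the first of these comparisons and 2.39% in the second, beside 1 of 8 members in each.

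**Figure D1:**
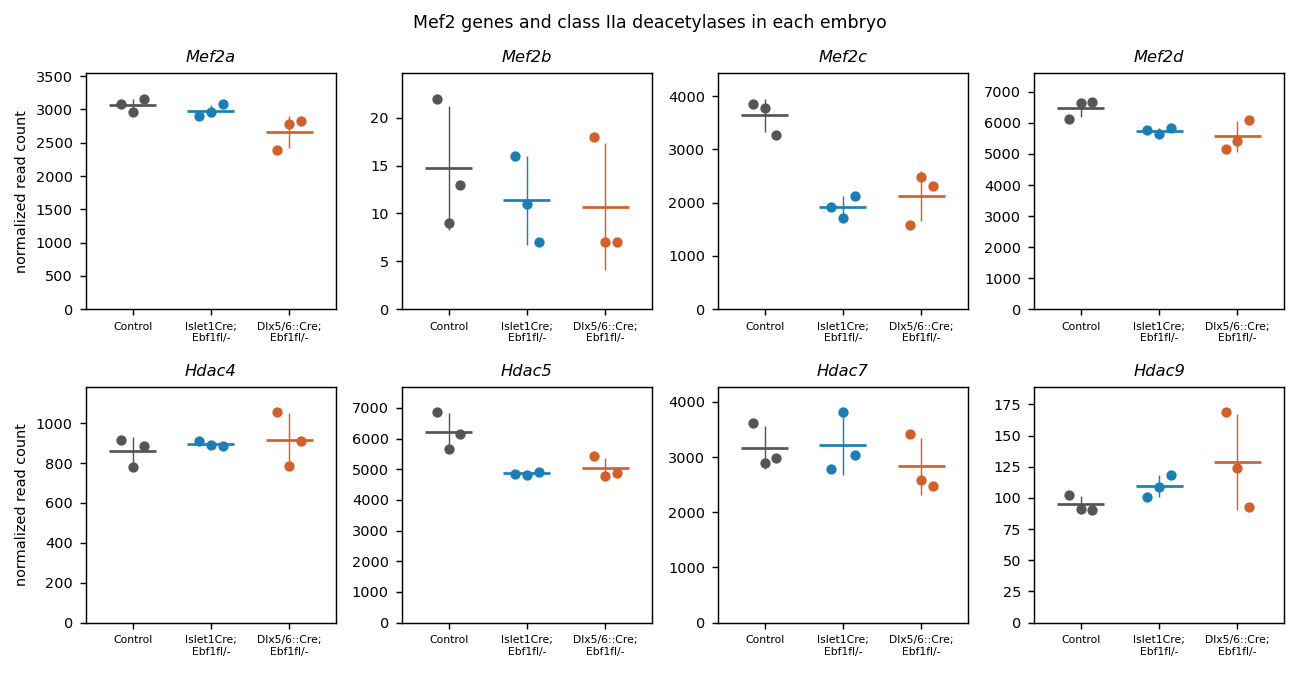
Normalized read counts (y axis, from 0) of the 8 genes in each of the 9 embryos by genotype (x axis); points are embryos, horizontal bars the mean and vertical bars 1 SD over 3 embryos. For Mef2c the 6 mutant embryos lie between 1587 and 2473, below the lowest control at 3279; for Hdac5 and Mef2d the mutant embryos also lie below every control, by smaller distances, and the other 5 genes overlap in at least 1 comparison.

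The promoters of Mef2c and Hdac5 are printed because these are the 2 members past the threshold in any comparison, Hdac5 for both mutant genotypes together. All sequences are from RefSeq on GRCm38.p6, which listed 14 starts for the 8 genes, and run 5′ to 3′ on the strand of the gene. Mef2c has 3 listed starts, and the 250 bases before each are at chr13:83503784-83504033, chr13:83523406-83523655 and chr13:83573357-83573606. Their GC content is 33.6%, 44.8% and 49.6%, all below the median of 52.4% over 32851 mouse promoters.
Mef2c start 1: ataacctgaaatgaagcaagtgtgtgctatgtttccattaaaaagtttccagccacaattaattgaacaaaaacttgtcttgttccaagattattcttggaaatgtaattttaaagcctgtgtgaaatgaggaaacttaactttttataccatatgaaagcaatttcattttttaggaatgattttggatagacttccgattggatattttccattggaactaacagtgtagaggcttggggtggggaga
Mef2c start 2: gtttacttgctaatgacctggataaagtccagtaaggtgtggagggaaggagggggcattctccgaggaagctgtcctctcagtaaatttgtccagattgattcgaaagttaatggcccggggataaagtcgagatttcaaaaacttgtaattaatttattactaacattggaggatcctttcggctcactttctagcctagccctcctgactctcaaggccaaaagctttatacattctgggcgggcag
Mef2c start 3: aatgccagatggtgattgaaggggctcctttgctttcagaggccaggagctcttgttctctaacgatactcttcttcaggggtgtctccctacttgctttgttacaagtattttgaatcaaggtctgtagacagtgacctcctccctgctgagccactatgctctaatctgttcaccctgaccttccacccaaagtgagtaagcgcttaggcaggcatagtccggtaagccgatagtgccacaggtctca
The 250 bases before the start of Hdac5, at chr11:102230173-102230422 on the minus strand, have a GC content of 60.8%. Capitals mark the letters of a Mef2 site.
Hdac5: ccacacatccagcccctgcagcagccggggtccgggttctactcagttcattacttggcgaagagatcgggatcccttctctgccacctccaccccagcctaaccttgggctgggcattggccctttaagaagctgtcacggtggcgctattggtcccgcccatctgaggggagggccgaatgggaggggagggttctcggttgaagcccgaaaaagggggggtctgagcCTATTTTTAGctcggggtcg

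Promoters from 250 bases before to 50 after each start were searched on both strands for a Mef2 site (CTA and TAG with any 4 bases between), an Ebf site (TCCC and GGGA with any 2 bases between) and a cyclic AMP response element (TGACGTCA). For 10 of the 14 starts the last 40 of these bases were found in an annotated transcript of the gene. The Mef2 letters were found in Mef2a, Hdac5 and the second start of Hdac9, and 3.69% of all promoters hold them. They are shown in capitals with 10 bases on either side, at chr7:67372841-67372870 (minus strand), chr11:102230173-102230202 (minus strand) and chr12:34528902-34528931 (minus strand).
Mef2a: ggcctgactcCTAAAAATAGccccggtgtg
Hdac5: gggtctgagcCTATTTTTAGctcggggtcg
Hdac9 start 2: tggattatcaCTAGCTTTAGccaacttgag
The letters lie from base -20 to base -11 before the start in Hdac5 and from -32 to -23 in Hdac9, and they run across the start, from base -2 to base 8, in Mef2a. Between CTA and TAG the matches of Mef2a and Hdac5 hold only A or T. That of Hdac9 also holds a G and a C, and is thus a looser match to A/T-rich DNA. The share of 3.69% counts matches with any 4 bases between. The 3 starts of Mef2c held none of the 3 motifs. The Ebf letters, in 0.904% of all promoters, and the cyclic AMP response element, in 1.79%, were in none of the 14 member promoters. A match of letters does not show binding, and their absence from these windows says nothing about sites elsewhere. The paper cites direct binding of Ebf1 to Mef2c in pro-B cells and calls Mef2c a likely direct target. Binding in the striatum was not tested here.

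The direction of the Mef2c change was the same in every fit that was run, but the calls depended on single embryos and, in the Dlx5/6::Cre;Ebf1fl/- comparison, on the samples in the fit. In the Islet1Cre;Ebf1fl/- comparison the call was lost without control 1, 2 or 3 and without Islet1Cre;Ebf1fl/- replicate 1 or 2, with adjusted p values up to 0.137 by edgeR and log2 fold changes from -1.01 to -0.85 over the 9 fits. In the Dlx5/6::Cre;Ebf1fl/- comparison it was lost without control 1, control 2 or Dlx5/6::Cre;Ebf1fl/- replicate 3, with adjusted p values up to 0.102 and log2 fold changes from -0.90 to -0.61, and with only its 6 samples in the fit (-0.78, adjusted p = 0.0732). The value nearest to 0 came from leaving out Dlx5/6::Cre;Ebf1fl/- replicate 1, the library high in progenitor and cortical markers, where the adjusted p was 0.00943. Without the 3 libraries that stand apart, the log2 fold changes were -1.07 (adjusted p = 0.00123) and -0.68 (adjusted p = 0.0095) in the Islet1Cre;Ebf1fl/- and Dlx5/6::Cre;Ebf1fl/- comparisons, respectively, in edgeR, with 1.52% and 2.14% of all genes called. When both mutant genotypes together were set against the controls, a contrast added after the data were seen, Mef2c was at -0.85 (SE 0.13, adjusted p = 0.00527), with 452 of all genes called (2.76%). This call held in all 9 fits that left out an embryo, with adjusted p values between 0.00043 and 0.0401. Embryo codes begin with IE in controls 1 and 2 and in all Islet1Cre;Ebf1fl/- embryos, and with D in control 3 and all Dlx5/6::Cre;Ebf1fl/- embryos, and the labels do not say what these letters stand for. Without control 3, as in the fit without the libraries that stand apart, no control was coded D. Genotype and code then cannot be told apart in the Dlx5/6::Cre;Ebf1fl/- comparison. Among embryos coded IE the log2 fold change was -0.99 (adjusted p = 0.00501), and among those coded D, with only 1 control, it was -0.63 (adjusted p = 0.989). With the code as a covariate the latter comparison also gave -0.63 (adjusted p = 0.417), so its direction was kept and its call was not.

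**Figure D2:**
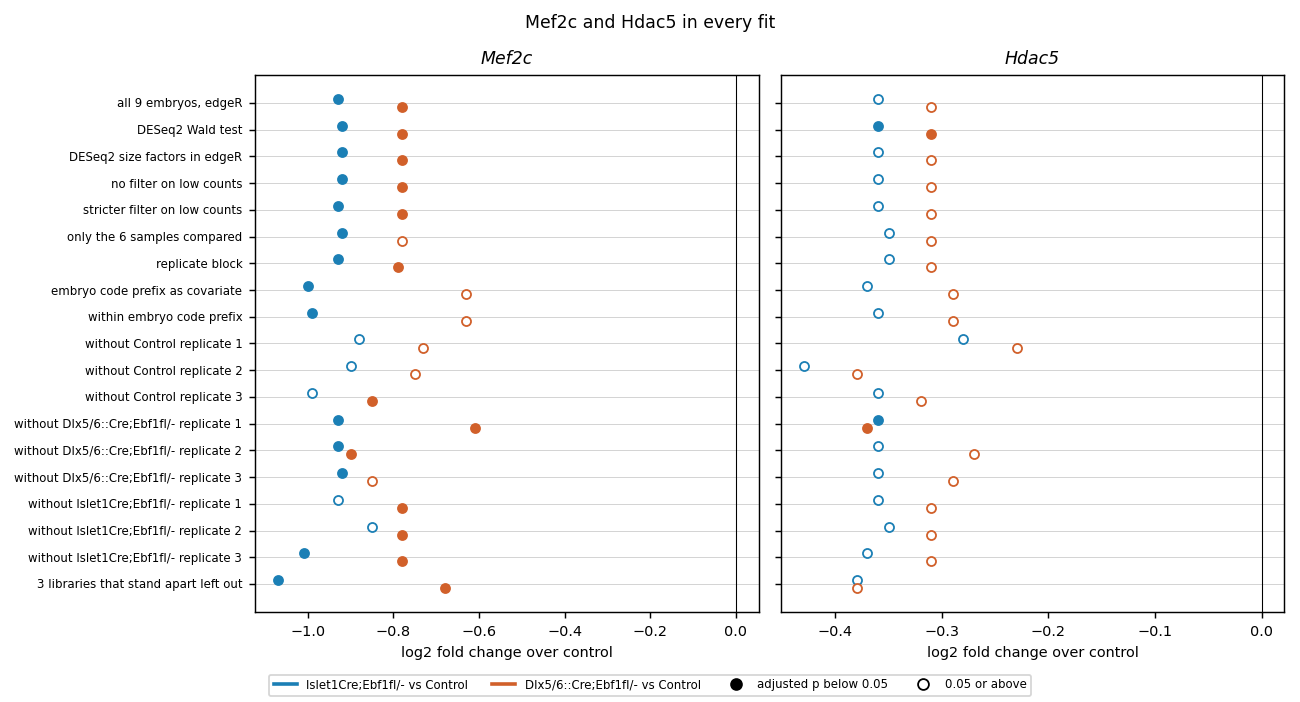
Log2 fold change over control (x axis) of Mef2c and Hdac5 in each fit (y axis), for both mutant genotypes; filled points have an adjusted p below 0.05. All points lie left of 0; Mef2c ranges from -1.07 to -0.61, with open points when single controls or mutant embryos are left out and, in the Dlx5/6::Cre;Ebf1fl/- comparison, when the embryo code is taken into account or only its 6 samples are fitted, whereas Hdac5 ranges from -0.43 to -0.23 and is mostly open.

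The other Mef2 genes moved less. Mef2d (ENSMUSG00000001419, chr3:88142372-88172086, plus strand), the member with the highest level in this tissue, had normalized counts of 6128, 6650 and 6664 in the controls. They were 5787, 5655 and 5826 in the Islet1Cre;Ebf1fl/- embryos and 5154, 5429 and 6108 in the Dlx5/6::Cre;Ebf1fl/- embryos, so that every mutant embryo lay below every control. The log2 fold changes were -0.17 (SE 0.08, 95% interval -0.35 to 0.00, adjusted p = 0.616) and -0.22 (SE 0.08, 95% interval -0.39 to -0.05, adjusted p = 0.2), which miss the adjusted threshold, and -0.20 (adjusted p = 0.208) for both genotypes together. Mef2a (ENSMUSG00000030557, chr7:67231163-67372858, minus strand), which is broadly expressed in brain, had 3088, 2956 and 3150 normalized counts in the controls and 2906, 2958 and 3078 in the Islet1Cre;Ebf1fl/- embryos. In the Dlx5/6::Cre;Ebf1fl/- embryos it had 2393, 2780 and 2825, below all embryos of the other genotypes, at -0.20 (SE 0.08, adjusted p = 0.238) over control and -0.16 (SE 0.08, adjusted p = 0.868) over the Islet1Cre;Ebf1fl/- embryos. Mef2b (ENSMUSG00000079033, chr8:70139711-70167488, plus strand), a factor of germinal centre B cells, was close to the limit of detection, with 9 to 22 normalized counts in the controls and 7 to 18 in the mutants. Its 95% interval, from -1.51 to 0.80 in the Islet1Cre;Ebf1fl/- comparison, leaves a change of Mef2c's size undetectable at this depth. Exons of Mef2b share 62 bp with Borcs8 on the same strand, and those of Mef2a (302 bp with Lysmd4) and Mef2d (531 bp with 1700113A16Rik) overlap a gene on the other strand. Whether the counting used the strand is not stated.

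Among the class IIa deacetylases only Hdac5 was lower in every mutant embryo. Hdac5 (ENSMUSG00000008855, chr11:102194432-102230166, minus strand) encodes a deacetylase that leaves the nucleus of neurons on activity. The controls had 6873, 5646 and 6155 normalized counts, the Islet1Cre;Ebf1fl/- embryos 4860, 4807 and 4918, and the Dlx5/6::Cre;Ebf1fl/- embryos 5428, 4786 and 4877. The groups do not overlap, although control 2 lay only a little above Dlx5/6::Cre;Ebf1fl/- replicate 1. In edgeR its log2 fold change was -0.36 (SE 0.09, 95% interval -0.55 to -0.17, adjusted p = 0.108) in the Islet1Cre;Ebf1fl/- embryos and -0.31 (SE 0.09, 95% interval -0.50 to -0.12, adjusted p = 0.108) in the Dlx5/6::Cre;Ebf1fl/- embryos, which do not pass the threshold. The Wald test of DESeq2 called Hdac5 in both comparisons, where it called 2.35% and 5.27% of all genes, as did edgeR without Dlx5/6::Cre;Ebf1fl/- replicate 1 (adjusted p = 0.0397 and 0.0458, with 2.38% and 3.68% called). For both genotypes together the change was -0.33 (SE 0.07, adjusted p = 0.0404) by edgeR, a call kept in 2 of the 9 fits that left out an embryo, those without control 2 and without Dlx5/6::Cre;Ebf1fl/- replicate 1, and lost without the 3 libraries that stand apart (-0.38, adjusted p = 0.0953, with 2.75% called).

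Hdac7 (ENSMUSG00000022475, chr15:97792664-97844502, minus strand), known best from blood vessels and the thymus, varied within genotypes as much as between them. Its normalized counts were 3618, 2900 and 2986 in the controls, 2777, 3820 and 3037 in the Islet1Cre;Ebf1fl/- embryos and 3425, 2582 and 2479 in the Dlx5/6::Cre;Ebf1fl/- embryos, and its adjusted p values were 0.999 and 0.642. Hdac4 (ENSMUSG00000026313, chr1:91928779-92195699, minus strand), a regulator of bone growth and neuronal survival, stayed between 782 and 1057 normalized counts in all 9 embryos, with log2 fold changes of 0.05 (95% interval -0.20 to 0.31) and 0.09 (95% interval -0.16 to 0.34). Hdac9 (ENSMUSG00000004698, chr12:34047580-34917095, minus strand), whose short isoforms lack the catalytic domain, was low. It had 102, 91 and 90 normalized counts in the controls, 101, 109 and 118 in the Islet1Cre;Ebf1fl/- embryos and 169, 124 and 93 in the Dlx5/6::Cre;Ebf1fl/- embryos. The highest value was that of Dlx5/6::Cre;Ebf1fl/- replicate 1, and the log2 fold change of 0.44 (SE 0.23, adjusted p = 0.38) in that genotype was 0.19 without it. None of these 3 genes passed the threshold in any fit.

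Counted over the members, every embryo was lower than every control for 3 of 8 genes in the Islet1Cre;Ebf1fl/- comparison (Mef2c, Mef2d and Hdac5), for 4 of 8 in the Dlx5/6::Cre;Ebf1fl/- comparison (the same and Mef2a) and for 3 of 8 for both genotypes together. The same held for 7.28%, 11.3% and 4.08% of all tested genes, respectively. No member had every mutant embryo above every control, as 7.83% and 9.63% of all genes had in the Islet1Cre;Ebf1fl/- and Dlx5/6::Cre;Ebf1fl/- comparisons. Mef2a alone was lower in every Dlx5/6::Cre;Ebf1fl/- than in every Islet1Cre;Ebf1fl/- embryo (5.39% of all genes). The median log2 fold change of the 8 genes was -0.11 in the Islet1Cre;Ebf1fl/- and -0.21 in the Dlx5/6::Cre;Ebf1fl/- comparison, against 0.00 and 0.01 over all genes tested. Between the mutant genotypes 0 of 8 members and 0 of all genes (0.0%) passed, with 844 genes (5.16%) at an unadjusted p below 0.05 in edgeR and 18 genes (0.118%) called by DESeq2. The 2 comparisons with the controls share the same 3 control embryos, so their likeness is no independent evidence.

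**Figure D3:**
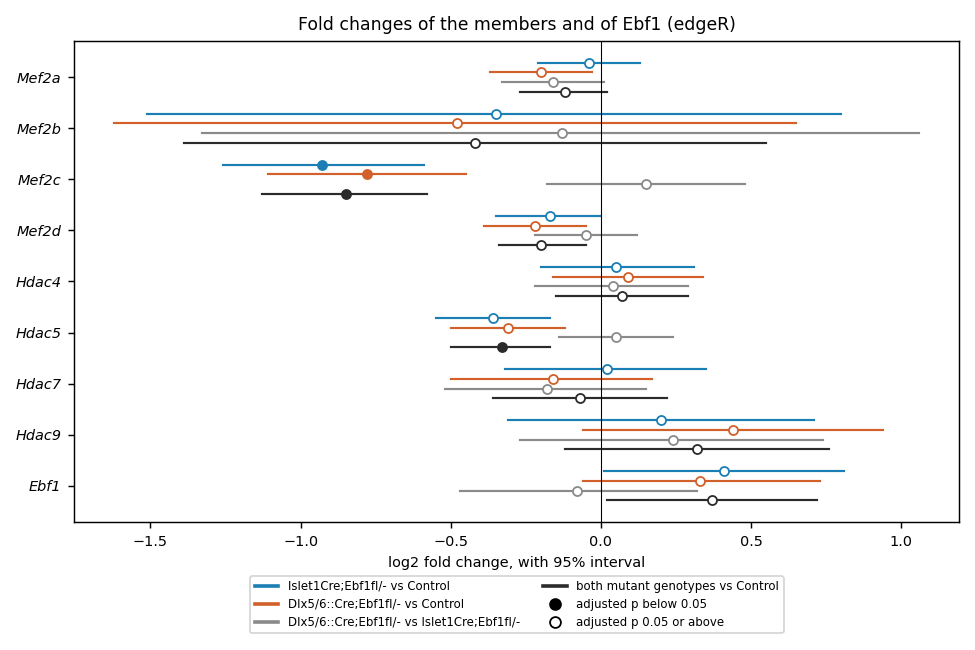
Log2 fold change with its 95% interval (x axis) for the 8 genes and Ebf1 (y axis) in the 3 comparisons and for both mutant genotypes together; filled points have an adjusted p below 0.05 in edgeR. Mef2c at -0.93, -0.78 and -0.85 and Hdac5 at -0.33 for both genotypes together are filled, while Mef2b has the widest intervals and Ebf1 lies right of 0 in its comparisons with controls.

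Levels were then compared between genes as scaled CPM per kb of exon. In the controls the order was Mef2d (35.9 ± 1.62, SD, n = 3), Hdac5 (23.5 ± 2.39), Hdac7 (15.6 ± 1.96), Mef2c (7.68 ± 0.67), Mef2a (6.93 ± 0.232), Hdac4 (1.81 ± 0.151), Mef2b (0.348 ± 0.153) and Hdac9 (0.214 ± 0.0152). Mef2c and Mef2a overlapped between embryos, as did Mef2b and Hdac9, and all other neighbours in this order were apart in every embryo. Mef2d stood at the 90.4th percentile of the levels of the tested genes and Hdac9 at the 8.0th. In both mutant genotypes Mef2c ranked below Mef2a. Mef2c was at 4.05 ± 0.443 and Mef2a at 6.72 ± 0.223 in the Islet1Cre;Ebf1fl/- embryos, and at 4.48 ± 0.986 and 6.02 ± 0.522 in the Dlx5/6::Cre;Ebf1fl/- embryos, and Mef2c was below Mef2a in all 6 mutant embryos but above it in 2 of 3 controls. In the Islet1Cre;Ebf1fl/- embryos Hdac5 (18.3 ± 0.26) and Hdac7 (15.7 ± 2.66) overlapped.

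Mef2c gave 15.1% ± 1.49 (SD, n = 3) of the summed level of the Mef2 genes in the controls, 9.43% ± 0.789 in the Islet1Cre;Ebf1fl/- embryos and 10.7% ± 1.81 in the Dlx5/6::Cre;Ebf1fl/- embryos, with the highest mutant embryo at 12.5% and the lowest control at 13.5%. Mef2d gave 70.6% ± 1.86, 74.3% ± 0.646 and 74.2% ± 1.89. The summed level of the 4 Mef2 genes was 50.9 ± 1.01 in the controls, 42.9 ± 1.10 in the Islet1Cre;Ebf1fl/- embryos and 41.6 ± 3.63 in the Dlx5/6::Cre;Ebf1fl/- embryos, without overlap between controls and mutants. The class IIa genes summed to 41.1 ± 4.44, 36.2 ± 2.51 and 35.1 ± 4.26, with overlapping ranges. Hdac5 gave 57.3% ± 0.815 of that sum in the controls, 50.8% ± 3.81 in the Islet1Cre;Ebf1fl/- embryos and 54.3% ± 2.62 in the Dlx5/6::Cre;Ebf1fl/- embryos. Shares were not tested, since an exact permutation test of 3 against 3 embryos cannot go below 0.1. They depend on the length taken for each gene: with the longest transcript in place of all exons, Mef2c gave 24.7% in the controls, 15.9% in the Islet1Cre;Ebf1fl/- embryos and 18.1% in the Dlx5/6::Cre;Ebf1fl/- embryos, in the same order.

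**Figure D4:**
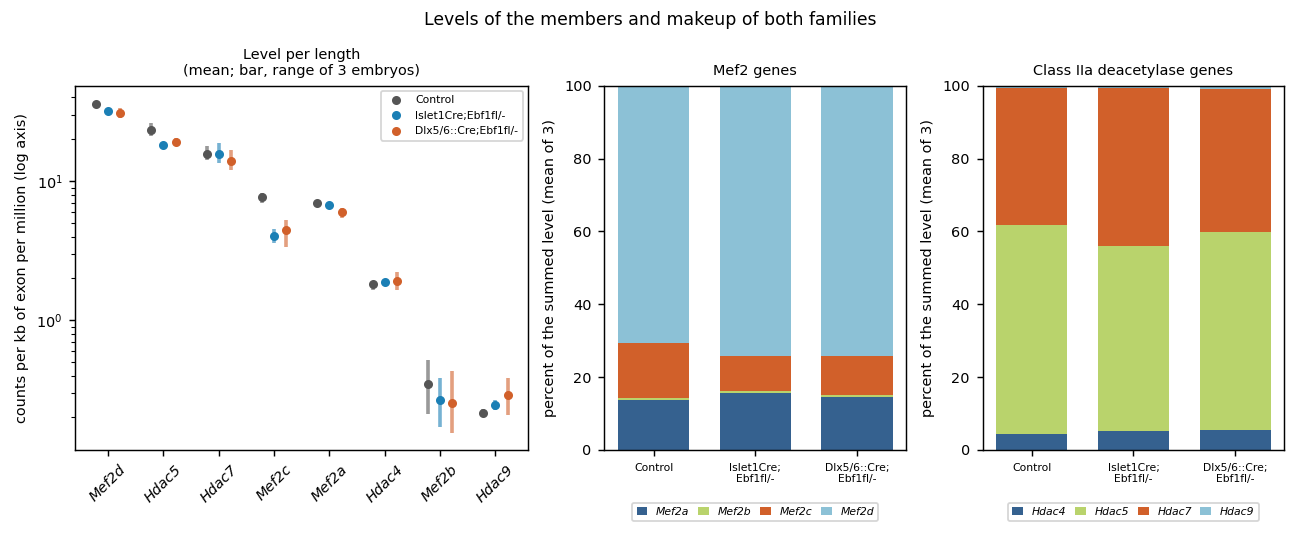
Left, level per length of each gene (log axis; points are means and bars the range of 3 embryos) by genotype. Right, mean share of each gene in the summed level of its family (y axis, 0 to 100%); Mef2c narrows from 15.1% in controls to 9.43% and 10.7% in the Islet1Cre;Ebf1fl/- and Dlx5/6::Cre;Ebf1fl/- embryos, and Mef2d holds over 70% throughout.

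Genes that act on Mef2 and the class IIa deacetylases were mostly within the spread. Of 43 such genes, 0 passed in the Islet1Cre;Ebf1fl/- comparison and 1 in the Dlx5/6::Cre;Ebf1fl/- comparison, beside 0.971% and 2.39% of all genes. Their median log2 fold changes were -0.01 and 0.00, against 0.00 and 0.01 over all genes tested. The 1 gene called was Camkk2, which encodes the kinase that activates calcium/calmodulin-dependent kinases I and IV. It had normalized counts of 6204, 6633 and 6604 in the controls, 5594, 5596 and 5931 in the Islet1Cre;Ebf1fl/- embryos and 4890, 5160 and 5550 in the Dlx5/6::Cre;Ebf1fl/- embryos. All mutant embryos were thus below all controls, with log2 fold changes of -0.19 (adjusted p = 0.475) and -0.32 (SE 0.07, adjusted p = 0.0465) by edgeR. The call was lost in each of the 9 fits that left out an embryo, with adjusted p values from 0.0631 to 0.177, and without the 3 libraries that stand apart (-0.26, adjusted p = 0.271). Kinases other than Camkk2 ranged from -0.20 to 0.51 and from -0.51 to 0.58 in the respective comparisons. The ends of the second range were Camk4 (1274, 1789 and 1096 normalized counts in the controls against 720, 1074 and 1118 in the Dlx5/6::Cre;Ebf1fl/- embryos) and Camk2d (661, 968 and 804 against 965, 1481 and 1199), named after their values were seen.

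The calcineurin subunits (3 genes) lay between 0.00 and 0.07 in the Islet1Cre;Ebf1fl/- and between -0.02 and 0.09 in the Dlx5/6::Cre;Ebf1fl/- comparison, with the most abundant, Ppp3ca, at 0.06 (95% interval -0.24 to 0.36) and -0.02 (95% interval -0.32 to 0.27). Of the 6 Ywha adaptor genes, Ywhae was the most abundant, at -0.02 and 0.04, and 0 passed in either comparison. Corepressors (8 genes) had 0 calls, and Ctbp1, the most abundant, was at 0.04 and 0.16. The corepressor farthest from 0 was Bcl6, named after its values were seen, with 89, 67 and 47 normalized counts in the controls, 101, 104 and 88 in the Islet1Cre;Ebf1fl/- embryos and 120, 147 and 135 in the Dlx5/6::Cre;Ebf1fl/- embryos. Its log2 fold change of 0.98 (SE 0.24, adjusted p = 0.0623) in the latter misses the threshold. Coactivators (5 genes) had 0 calls, with Carm1 at -0.03 and -0.02.

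Reported Mef2 target genes of neurons (15 genes) did not pass either, with 0 calls in each comparison and medians of -0.03 and -0.01. In each comparison 8 of the 15 had a log2 fold change below 0. They ranged from -0.55 to 0.81 in the Islet1Cre;Ebf1fl/- and from -0.73 to 0.84 in the Dlx5/6::Cre;Ebf1fl/- comparison. The 43 regulators ranged from -0.25 to 0.53 and from -0.51 to 0.98, respectively. The genes at the ends were, named after their values were seen, the activity-regulated Nr4a1 and Arc and the protocadherin Pcdh17. Arc had 767, 746 and 774 normalized counts in the controls, 590, 548 and 532 in the Islet1Cre;Ebf1fl/- embryos and 229, 572 and 571 in the Dlx5/6::Cre;Ebf1fl/- embryos, and every mutant embryo lay below every control. Nr4a1 showed the same order, with 936, 1014 and 1149 in the controls and 487 to 832 in the mutants. Every mutant embryo lay below every control for 4.08% of all tested genes. The lowest value of Arc and of Nr4a1 was that of Dlx5/6::Cre;Ebf1fl/- replicate 1, a library that stands apart. Adjusted p values of Arc and Nr4a1 were at least 0.149 in either comparison in edgeR. Pcdh17 ranged from 641 to 2948 among the controls themselves. The other histone deacetylases (7 genes of classes I, IIb and IV, with Hdac3 also among the corepressors) and the sirtuins (7 genes) had 0 calls in both comparisons. Hdac2, the most abundant of the first, was at -0.02 and 0.05, and Sirt2 of the second at 0.00 and -0.03.

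**Figure D5:**
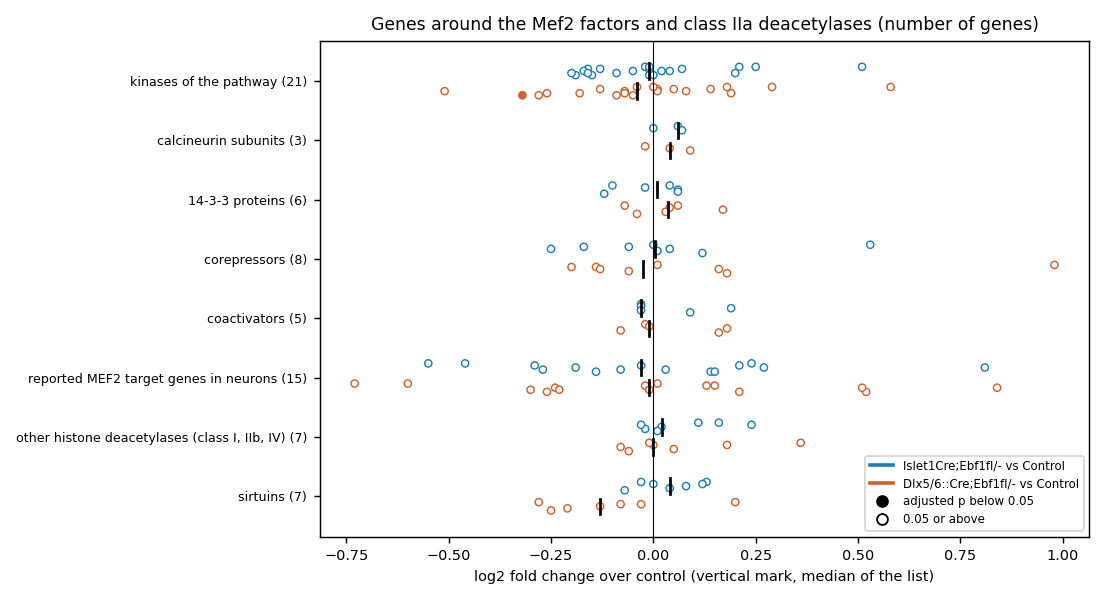
Log2 fold change over control (x axis) of each gene in 8 lists around the Mef2 factors and class IIa deacetylases (y axis, number of genes in brackets), for both mutant genotypes; vertical marks are list medians and filled points have an adjusted p below 0.05 in edgeR. Camkk2 at -0.32 in the Dlx5/6::Cre;Ebf1fl/- comparison is the only filled point, the medians lie between -0.13 and 0.06, and the widest list is that of reported Mef2 targets.

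The genes whose pattern over the 9 embryos was most like that of Mef2c were sought among 11992 genes with a mean normalized count of at least 100. As they were chosen for this pattern, their values are a description, and embryos of 1 genotype share it. The 5 most alike by Pearson's r of log2 CPM were Scrn1 (r = 0.984), the planar cell polarity gene Prickle1 (0.984), Mturn (0.983), Ajap1 (0.977), which encodes an adherens junction protein, and Fam19a5 (0.972), which encodes a secreted protein of the brain. Prickle1 had 345, 341 and 274 normalized counts in the controls, 166, 150 and 174 in the Islet1Cre;Ebf1fl/- embryos and 154, 239 and 201 in the Dlx5/6::Cre;Ebf1fl/- embryos. Mturn, by contrast, moved over a smaller range, from 10980 to 11575 in the controls and from 7826 to 9726 in the mutants. The 5 most opposite were Inpp5b (r = -0.963), 2610318N02Rik (-0.954), the imprinted gene Peg3 (-0.950), Acp6 (-0.950) and Ulk4 (-0.946). Acp6, a lysophosphatidic acid phosphatase of mitochondria, went from 237 to 338 normalized counts in the controls to 522 to 711 in the mutants. Among the members, Mef2d (r = 0.81) and Hdac5 (0.73) were closest to Mef2c, Mef2a (0.60), Mef2b (0.06) and Hdac7 (-0.11) followed, and Hdac4 (-0.52) and Hdac9 (-0.62) had negative values.

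Markers of other cells moved with genotype only in part. In the Dlx5/6::Cre;Ebf1fl/- embryos all 10 cortical excitatory markers had a log2 fold change above 0, with a median of 0.99 and 0 past the threshold, and their summed level was 103 to 243 CPM against 42.5 to 100 in the controls. In the Islet1Cre;Ebf1fl/- embryos the sum was 45.9 to 75.2. Cortical neurons also express Mef2c, and the part of these cells in its level was not tested. The 7 progenitor markers summed to 329 to 1053 CPM in the Dlx5/6::Cre;Ebf1fl/- and 370 to 424 in the Islet1Cre;Ebf1fl/- embryos, against 291 to 343 in the controls, with 0 of 7 called in either comparison. Interneuron markers of the medial ganglionic eminence summed to 355 to 398 CPM in the controls, 347 to 399 in the Islet1Cre;Ebf1fl/- embryos and 221 to 355 in the Dlx5/6::Cre;Ebf1fl/- embryos, with 0 of 6 tested called. Of 9 endothelial markers, whose cells express Mef2c and Hdac7, 0 were called in either comparison, and their sums overlapped (158 to 213, 167 to 179 and 150 to 183). Of 9 microglial markers, whose cells also express Mef2c, Fcrls alone was called, higher in the Dlx5/6::Cre;Ebf1fl/- embryos (log2 fold change 1.08, adjusted p = 0.024), and the sums were 91.2 to 101, 85.3 to 112 and 109 to 128. The 12 SPN markers summed to 2796 to 3327 CPM in the controls, 2877 to 3009 in the Islet1Cre;Ebf1fl/- embryos and 2385 to 3001 in the Dlx5/6::Cre;Ebf1fl/- embryos. In the Islet1Cre;Ebf1fl/- comparison 4 of 12 were below 0 (median 0.05) and 0 were called. In the Dlx5/6::Cre;Ebf1fl/- comparison 6 of 12 were below 0 (median -0.01), with Tac1 at -1.12 (adjusted p = 0.0776) and Drd1 at 0.53 (adjusted p = 0.293) at the ends, and Foxp1 alone was called, at -0.53 (adjusted p = 0.0305). The Foxp1 call was not followed across the other fits. The paper counts Foxp1 among generic SPN markers. From the same RNA sequencing, by DESeq, it reports no significant change of generic SPN genes in both mutants. Astrocyte and oligodendrocyte lineage, skeletal muscle and red blood cell markers had 0 calls. Of the 6 astrocyte and oligodendrocyte lineage markers, 5 were below 0 in the Islet1Cre;Ebf1fl/- comparison (median -0.14). In the Dlx5/6::Cre;Ebf1fl/- comparison 0 of 6 were (median 0.24). All 3 red blood cell markers were below 0 in both comparisons (medians -0.35 and -0.30). What part any of these had in the values of the 8 genes was not tested.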

How the data were processed

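RNA of 9 striata was sequenced after selection of polyadenylated RNA with a stranded kit. According to the methods, the authors filtered reads, mapped them with STAR 2.4.0k, removed reads with more than 1 match and used HTSeq 0.5.3 for counting on Ensembl 81 genes; whether strand was used is not stated. Per the labels the build is mm10. The deposited values are these raw counts, without normalization. Removing reads with more than 1 match lowers counts of genes with near-identical copies.

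Groups come from the sample labels. All 9 libraries entered 1 fit of edgeR 4.0.16 under R 4.3.3 (filterByExpr with a minimum count of 10, TMM, quasi-likelihood test, Benjamini-Hochberg over 16368 genes, threshold 0.05). Standard errors were taken as the absolute log2 fold change over the square root of F. Normalized counts are counts over DESeq2 1.42.0 size factors. Levels are TMM-scaled CPM per kb of merged exons of GENCODE M21, in which 44048 of 44886 identifiers were found. Depth, 16.5 to 41.5 M counts, limits Mef2b and Hdac9 most.

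Named were the 8 members, Ebf1, the called genes of each list or else its most abundant gene, and the 5 genes most and least like Mef2c. 1 gene that this rule names is not reported here. The members, lists and tests were chosen with earlier results of these data known. The alternatives tried were the DESeq2 Wald test, DESeq2 size factors in edgeR, no filter or a minimum count of 50, only the 6 samples compared, a replicate block, the embryo code prefix as a covariate or within it, another gene length, and each embryo left out. On simulated counts for Islet1Cre;Ebf1fl/- against Control with 16368 genes, the edgeR step called 40 of 100 genes changed 1.5-fold, 88 of 100 changed 2-fold and 11 of 16168 unchanged genes. The changed genes had a mean expected count above 100, so these rates do not cover Mef2b. Counts were drawn independently for each gene, without libraries that stand apart. No protein sequences were used here.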

Additional observations from a re-analysis of the deposited data

How the results depend on the processing

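In the Islet1Cre;Ebf1fl/-, Dlx5/6::Cre;Ebf1fl/- and direct comparisons, in that order, 159, 392 and 0 genes were called. DESeq2's Wald test called 394, 857 and 18, no filter 311, 708 and 13, only the 6 samples compared 259, 181 and 2, a covariate for the code prefix 61, 32 and 1, and the libraries left after removing the 3 that stand apart 252, 355 and 7. Within the code prefix the Dlx5/6::Cre;Ebf1fl/- comparison had 2. Leaving out 1 embryo gave 15 to 397, 143 to 613 and 0 to 4, the first 2 lowest without Islet1Cre;Ebf1fl/- replicate 2 and without control 1, respectively, and both highest without Dlx5/6::Cre;Ebf1fl/- replicate 1, and the third highest without control 3. Of the 8 members, 1 was called in each comparison with controls and 2 for both mutant genotypes together. DESeq2 called 2 in each of the former, leaving out an embryo 0 to 2, and the Dlx5/6::Cre;Ebf1fl/- comparison had 0 with only its 6 samples, with the code prefix as a covariate and within it. For both genotypes together, 1 member was called with the prefix, 1 without the 3 libraries and 1 to 2 without single embryos. The cause was not tested, and fewer embryos give wider errors by construction. The share of Mef2c in the controls was 24.7% in place of 15.1% with the longest transcript as gene length, under which 6 of 8 members kept their rank. With the replicate number as a block, 143 and 363 genes and 1 member in each comparison were called. Same-numbered embryos did not deviate together, with correlations from -0.228 to 0.178, so the numbers were not taken as pairs. Mef2c and Hdac5 kept their direction against the controls in every fit, while Hdac7 changed sign in 5 fits of the Islet1Cre;Ebf1fl/- comparison and Mef2b and Hdac4 in 1 each. Hdac4 also changed sign in 2 fits of the Dlx5/6::Cre;Ebf1fl/- comparison. Low counts of Mef2b and Hdac9 set the widest intervals.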
